A study of Homo sapiens with 12 samples.

Results

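The 9 genes followed here, called tether genes for short, are LBR, TMPO, EMD, LEMD2, LEMD3, BANF1, NRM, TMEM43 and TMEM201. BANF1 encodes a small DNA-bridging protein, and the others encode proteins of the inner nuclear membrane, TMPO in some of its forms. These 9 were chosen by name, as genes listed for proteins that bind lamins or chromatin at the nuclear envelope. The rule uses no measured value, but the members and the gene lists set beside them were chosen with earlier results of these data known. All 9 were found by Ensembl identifier among the 60708 gene rows of the deposited tables, and all 9 passed the filter on low counts. The 12 mRNA libraries came from 4 clonal derivatives of hTERT RPE-1, a human retinal pigment epithelial cell line immortalised with telomerase. The control clones mCherry_3 and mCherry_4 overexpressed the red fluorescent protein mCherry, and the clones LmnB1_6 and LmnB1_16 overexpressed mCherry fused to lamin B1. There were 3 libraries per clone, labelled as biological replicates, and all cultures, controls included, were kept in hygromycin B and given 0.05 ug/mL doxycycline for 24 hours. Each line is 1 clone, so a construct is represented by 2 clones, and no source used here names the promoter that drives it.

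The nuclear lamina is a filament meshwork under the inner nuclear membrane, and the tethers connect it and the membrane to chromatin. TMPO (the LAP2 proteins), EMD (emerin), LEMD2 and LEMD3 (MAN1) share the LEM domain, which binds the small DNA-bridging protein BAF, encoded by BANF1. LBR, the lamin B receptor, binds B-type lamins and the heterochromatin protein HP1 and is also a sterol reductase, and with lamin A/C it is known as a holder of heterochromatin at the nuclear periphery. NRM (nurim), TMEM43 (LUMA) and TMEM201 (SAMP1) are other proteins of the inner nuclear membrane, without a LEM domain.

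On GRCh38, LBR lies at chr1:225401502-225428925 on the minus strand, TMPO at chr12:98515512-98550379 on the plus strand and NRM at chr6:30688047-30691420 on the minus strand. EMD lies at chrX:154379197-154381523 on the plus strand, LEMD2 at chr6:33771202-33789136 on the minus strand and LEMD3 at chr12:65169571-65248327 on the plus strand. BANF1 lies at chr11:66002079-66004149, TMEM43 at chr3:14124940-14143679 and TMEM201 at chr1:9588922-9614873, all on the plus strand. All 9 are annotated as protein coding, with 2 (TMEM43) to 14 (LEMD2) transcripts.

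The sequences shown are the stretches upstream of TMPO, LBR and NRM, the members in which all 3 mCherry_3 libraries lay below the 9 others, and of LEMD3, whose count relative to library size hardly moved. They are the parts outside protein-coding exons of the RefSeq promoter windows of GRCh38.p14, written 5′ to 3′ on the strand of the gene. They cover chr12:98515323-98515511 for TMPO, chr1:225428926-225429071 for LBR, chr6:30691421-30691670 for NRM and chr12:65169333-65169570 for LEMD3, and the capitals mark matches to the searched letters.
TMPO: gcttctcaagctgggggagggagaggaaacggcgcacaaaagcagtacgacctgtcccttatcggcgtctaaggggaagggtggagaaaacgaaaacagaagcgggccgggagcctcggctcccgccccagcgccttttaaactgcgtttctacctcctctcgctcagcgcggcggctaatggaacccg
LBR: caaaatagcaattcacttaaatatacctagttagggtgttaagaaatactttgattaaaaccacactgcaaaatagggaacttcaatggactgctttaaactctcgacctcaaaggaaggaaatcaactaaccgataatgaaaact
NRM: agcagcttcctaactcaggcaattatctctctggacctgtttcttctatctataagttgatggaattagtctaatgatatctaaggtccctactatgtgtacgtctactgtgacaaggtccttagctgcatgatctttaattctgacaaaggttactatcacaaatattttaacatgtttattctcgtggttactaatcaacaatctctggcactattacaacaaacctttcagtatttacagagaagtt
LEMD3: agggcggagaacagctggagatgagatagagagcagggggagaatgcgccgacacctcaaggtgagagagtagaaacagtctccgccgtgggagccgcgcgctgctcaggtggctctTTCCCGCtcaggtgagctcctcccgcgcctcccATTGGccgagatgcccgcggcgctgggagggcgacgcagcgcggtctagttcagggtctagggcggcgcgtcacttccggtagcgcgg
The letters TTTGAA (the cell cycle genes homology region), TTGGCGC and TTCCCGC (E2F) and CCAAT were searched on both strands of the full windows of 300 bases, and the motifs do not overlap one another in the letters printed. All 9 genes matched the table, with 12 windows. TTTGAA and TTGGCGC were found in the windows of 0 of 9 members, against 18.2% and 3.66% of the 27305 genes in the table (15.2% and 3.04% of its 35116 windows). TTCCCGC was found in 3 of 9 members (LEMD3, BANF1 and NRM, in another NRM window than the one printed), 1 window each, against 7.82% of genes (6.55% of windows). CCAAT was found in 4 of 9 (TMPO, EMD, LEMD3 and TMEM201), against 39.7% of genes (34.6% of windows), and the matches of TMPO lie outside the stretch printed. These are matches of letters in short windows and were set against no reading of binding.

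Libraries held 20.6 to 29.5 M estimated counts. Values are CPM, counts relative to library size after TMM scaling, and a value with ± is a mean and SD over a clone's 3 libraries. LMNB1, the gene that the LmnB1 construct carries, stood at 85.0 ± 7.12 in mCherry_3 and 161 ± 7.29 in mCherry_4, and at 3976 ± 164 in LmnB1_6 and 3374 ± 273 in LmnB1_16, so all 12 libraries matched the construct on their labels, which is no check of the clone. Of the retinal pigment epithelium markers, RPE65, TYR and TTR had a mean of 0 CPM in every clone. MITF, a pigment cell transcription factor, stood at 58.6 in mCherry_3, 49.0 in mCherry_4 and 31.3 in LmnB1_16 but at 0.059 in LmnB1_6. OTX2 was at 0 in LmnB1_6 and at 11.1 to 15.5 in the other clones. In the clone means BEST1 was at 0.37 to 0.60, RLBP1 at 0 to 0.24 and PMEL at 0.82 to 4.54. SERPINF1 was at 0.20 to 1.43 and LRAT at 0.17 to 3.60. Of the 6 such markers that passed the filter, edgeR called 1 higher and 1 lower between the constructs. These were SERPINF1 (log2 1.46, adjusted p = 0.0348) and LRAT (-1.86, adjusted p = 0.0443). The epithelial keratin genes KRT8 and KRT18 were at 291 to 613 CPM in the clone means. Both were called lower in the LmnB1 libraries (log2 -0.51 and -0.58, edgeR adjusted p = 0.0190 and 0.0215). Of 12 markers of leukocytes, endothelium, muscle and neurons 7 were below 1 CPM in every clone, PTPRC, PECAM1, CDH5, MYOD1 and RBFOX3 among them. Those above 1 CPM in every clone were CD68 (42.3 to 83.2), CSF1R (1.37 to 5.54), TIE1 (3.90 to 15.04) and the tubulin gene TUBB3 (152 to 459), and DES was at 0.27 to 1.72. TUBB3, highest in LmnB1_6, was the one of them called between the constructs (log2 0.80, edgeR adjusted p = 0.0299), and the part of these markers in the members' differences was not tested.

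Among the 9 tether genes, TMPO was higher in the lamin B1 clones, by 1.58-fold over the mCherry clones, and it was the member whose 6 LmnB1 libraries all lay above all 6 mCherry libraries. LBR and NRM were low in the mCherry_3 clone and similar in the other clones, mCherry_4 included. EMD, TMEM43 and TMEM201 differed between clones without following the construct, and LEMD2, LEMD3 and BANF1 were not called in any pair of clones. With edgeR's quasi-likelihood test of 6 against 6 libraries, with a call at an adjusted p under 0.05 (Benjamini-Hochberg, 15388 genes), 1 of 9 members was called (TMPO, higher). Over all genes 17.8% were called, 8.58% as higher and 9.25% as lower, so the members' share was near the background. The median log2 fold change was 0.015 over the members and 0.00 over all genes tested. In bulk RNA, fewer cells that express a gene and less RNA per cell cannot be told apart.

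TMPO encodes the LAP2 proteins, a family of splice forms in which some span the inner nuclear membrane and bind B-type lamins and LAP2 alpha is soluble in the nucleoplasm and binds lamin A. Its level was 159, 178 and 183 CPM in the mCherry_3 libraries and 287, 292 and 261 CPM in the mCherry_4 libraries. It was 399, 387 and 338 CPM in LmnB1_6 and 331, 365 and 326 CPM in LmnB1_16. The order of the clones was therefore mCherry_3, mCherry_4, then both LmnB1 clones, with a gap between the highest mCherry library (292) and the lowest LmnB1 library (326). Of all genes tested, 3.80% lay higher without overlap between the constructs and 4.85% lower, and TMPO was 1 of 9 members. The construct difference was 0.66 on the log2 scale (SE 0.15, 95% interval 0.33 to 0.99, edgeR adjusted p = 0.0138).

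Each LmnB1 clone was then set against each mCherry clone, in an edgeR model with the 4 clones as groups. TMPO rose by 1.11 in LmnB1_6 and 0.98 in LmnB1_16 over mCherry_3, and by 0.42 and 0.28 over mCherry_4 (log2; adjusted p = 3.75e-09, 3.75e-08, 0.000271 and 0.0150). It was called higher in each of these 4 contrasts, as 1 of 9 members, where 4.68% of all genes had 4 calls in 1 direction and 1.77% had them as higher. Between the LmnB1 clones TMPO differed by -0.14 (95% interval -0.29 to 0.02, adjusted p = 0.181). Between the control clones it differed by 0.69 (SE 0.075), as large as the construct difference, so the spread within the mCherry construct was not small beside it. The call of 6 against 6 libraries ended without the LmnB1_6 clone (0.59, adjusted p = 0.0842), with clone as a random effect in limma (0.70, adjusted p = 0.0815) and with counts summed per clone (0.65, adjusted p = 0.778), and without mCherry_3 the difference was 0.36 (adjusted p = 0.0389) and without mCherry_4 1.04. The contrast of LmnB1_16 with mCherry_4 lost its call without mCherry_4 replicate 3 (adjusted p = 0.0786) or without LmnB1_16 replicate 2 (adjusted p = 0.0529).

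The counts are per gene, so the LAP2 forms are not told apart, and TMPO's estimated count was a fraction, not a whole number, in each of the 12 libraries. TMPO shares 713 of its 8593 annotated exon bases with its antisense gene TMPO-AS1, and no source used here gives the strand of the libraries. The TMPO stretch printed above lies within an exon of TMPO-AS1. The antisense gene itself stood at 16.8 ± 2.97, 23.3 ± 3.204, 22.5 ± 1.37 and 26.1 ± 3.15 CPM in mCherry_3, mCherry_4, LmnB1_6 and LmnB1_16, far below TMPO in each clone.

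**Figure D1:**
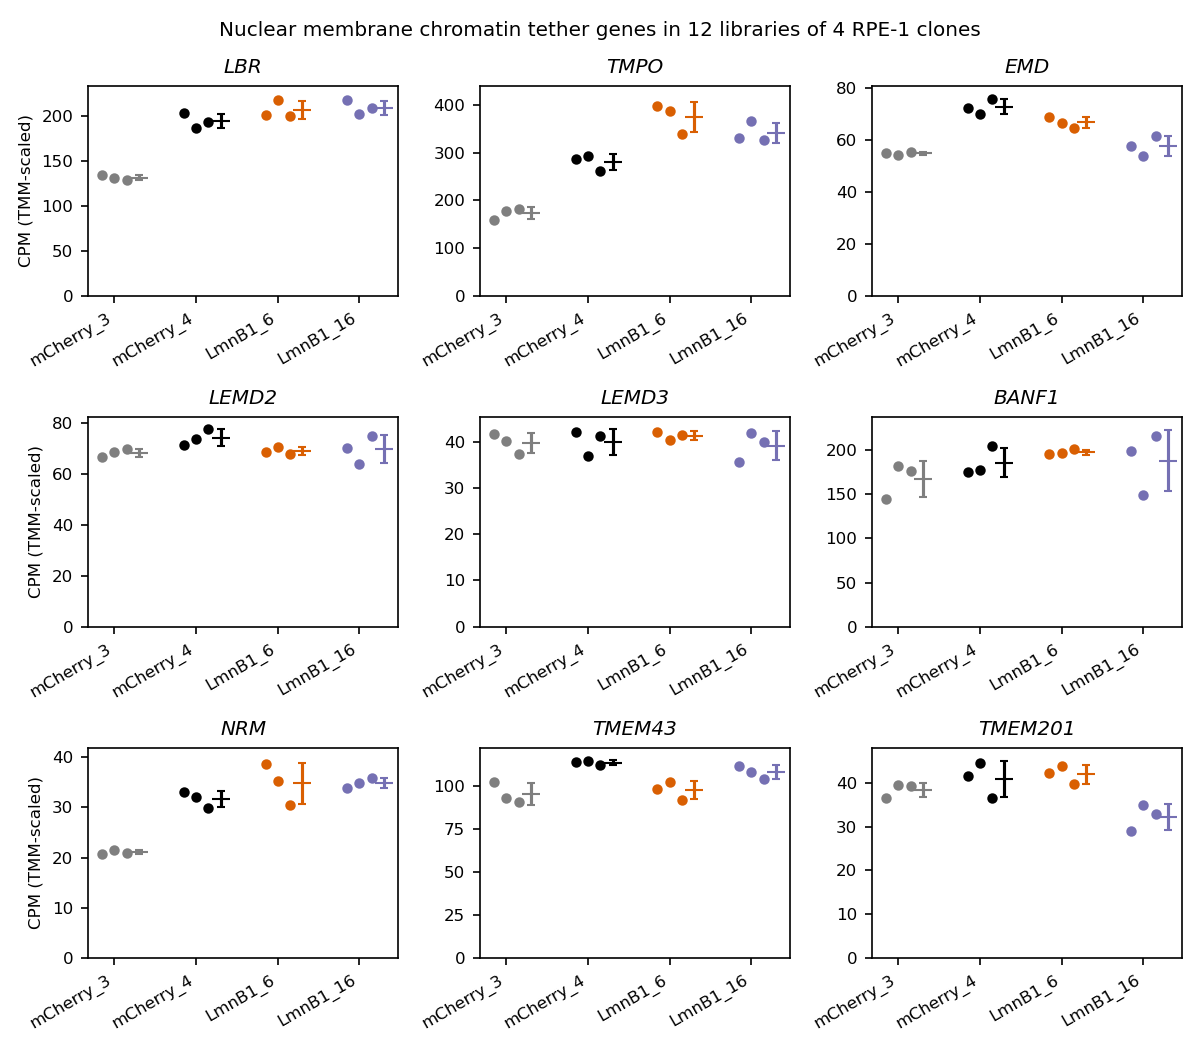
CPM (vertical axis, from 0, TMM-scaled) of the 9 tether genes in the 3 libraries of each clone (points), with the clone mean and SD (bar). TMPO is the panel in which all LmnB1 libraries (326 to 399) sit above all mCherry libraries (159 to 292), while LBR and NRM are low in mCherry_3 alone.

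LBR encodes the lamin B receptor, the tether that is also an enzyme of cholesterol synthesis. Its level was 134, 131 and 129 CPM in mCherry_3 and 203, 187 and 194 CPM in mCherry_4. It was 202, 218 and 200.2 CPM in LmnB1_6 and 218, 203 and 209 CPM in LmnB1_16. All mCherry_3 libraries lay below all 9 others, and the libraries of mCherry_4 overlapped those of both LmnB1 clones. Between the constructs LBR had a log2 fold change of 0.35 (SE 0.12, 95% interval 0.09 to 0.61, edgeR adjusted p = 0.0585), which did not pass the threshold. Against mCherry_3 it rose by 0.65 in LmnB1_6 and 0.67 in LmnB1_16, and against mCherry_4 the differences were 0.08 (95% interval -0.03 to 0.20, adjusted p = 0.250) and 0.11 (-0.01 to 0.22, adjusted p = 0.231). The control clone mCherry_4 itself exceeded mCherry_3 by 0.57 (SE 0.055, adjusted p = 7.19e-07). Without mCherry_3 the construct difference was 0.10 (adjusted p = 0.296) and without mCherry_4 it was 0.66 (adjusted p = 2.5e-05), and it was called with DESeq2 (adjusted p = 0.0236). Over all alternatives the adjusted p ran up to 0.778.

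NRM encodes nurim, a multi-pass protein tightly bound in the nuclear envelope. It showed 20.8, 21.5 and 20.8 CPM in mCherry_3 and 33.0, 32.2 and 29.9 CPM in mCherry_4. In LmnB1_6 it showed 38.6, 35.4 and 30.4 CPM and in LmnB1_16 33.9, 34.8 and 35.9 CPM. As for LBR, the 3 mCherry_3 libraries were the lowest of the 12, and mCherry_4 overlapped LmnB1_6 and lay just below LmnB1_16. Between the constructs NRM differed by 0.40 (SE 0.13, 95% interval 0.12 to 0.69, edgeR adjusted p = 0.0502), just outside the threshold. NRM rose by 0.72 and 0.73 in the LmnB1 clones against mCherry_3, and by 0.59 in mCherry_4 against mCherry_3 (adjusted p = 4.27e-05). Against mCherry_4 the differences of LmnB1_6 and LmnB1_16 were 0.13 (95% interval -0.04 to 0.31) and 0.14 (-0.04 to 0.32), neither called. The construct difference of NRM was called with RLE size factors (adjusted p = 0.0477) and DESeq2 (0.0201), and it was 0.14 (adjusted p = 0.346) without mCherry_3.

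In all, 3 of 9 members (TMPO, LBR and NRM) had every mCherry_3 library below the 9 other libraries, where 13.8% of all genes tested did. In the contrast of the control clones, 5 of 9 members were called, all higher in mCherry_4, where 37.4% of all genes were called and 19.9% as higher. The median over the members was 0.25 and that over all genes 0.01 on the log2 scale.

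Cell cycle genes differed between the same clones. Of 20 mitosis genes, all 20 were higher in mCherry_4 than in mCherry_3 (median log2 fold change 1.03), and their medians in LmnB1_6 and LmnB1_16 against mCherry_4 were 0.05 and 0.13. Their mean log2 CPM, relative to the mean of the 12 libraries, was -0.81 ± 0.09 in mCherry_3 and 0.21 ± 0.07 in mCherry_4, against 0.26 ± 0.10 for LmnB1_6 and 0.34 ± 0.05 for LmnB1_16. On the same scale LBR was at -0.47 ± 0.03, 0.09 ± 0.06, 0.18 ± 0.07 and 0.20 ± 0.05, and NRM at -0.51 ± 0.03, 0.08 ± 0.07, 0.21 ± 0.17 and 0.22 ± 0.04. TMPO was at -0.69 ± 0.11, 0.00 ± 0.09, 0.42 ± 0.13 and 0.28 ± 0.09. For TMPO, mCherry_4 thus lay between mCherry_3 and both LmnB1 clones, nearer to the LmnB1 clones. For the mitosis genes it lay nearer still to the LmnB1 clones. Of 16 replication genes, 13 were higher and 1 lower in mCherry_4 than in mCherry_3. Their mean on that scale was -0.32 ± 0.09 for mCherry_3 and 0.03 ± 0.05 for mCherry_4, below both LmnB1_6 (0.12 ± 0.11) and LmnB1_16 (0.17 ± 0.02), and 3 of them (MCM5, MCM7 and POLD1, named after their values were seen) were called higher in all 4 contrasts of an LmnB1 with an mCherry clone, as TMPO was. Between the constructs 2 of the 20 mitosis genes and 7 of the 16 replication genes were called, all higher. The part of these genes in the differences of TMPO, LBR and NRM was not tested.

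**Figure D2:**
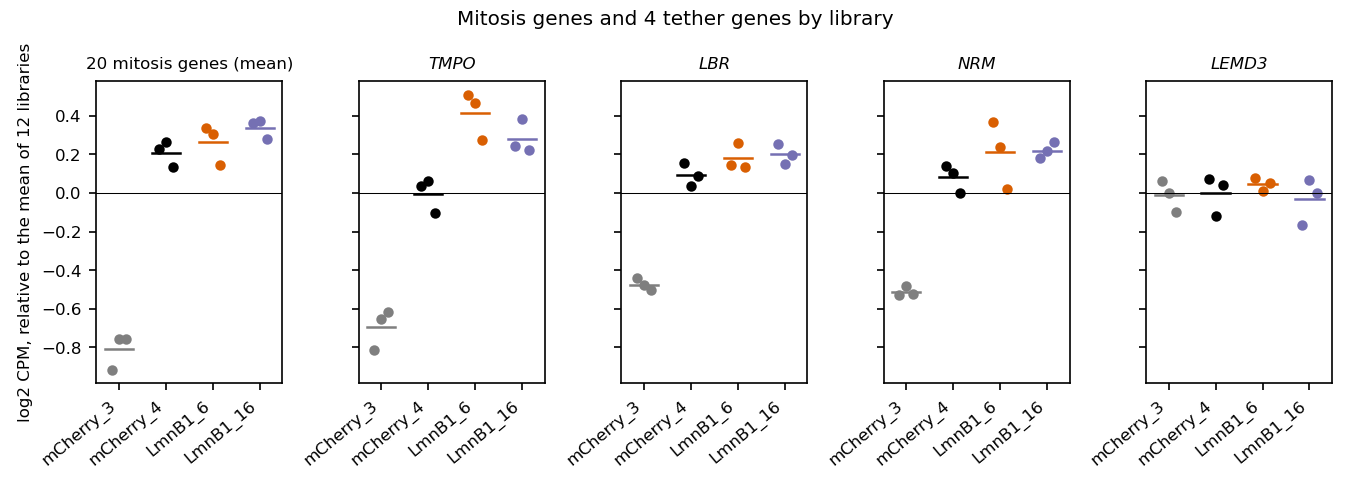
Log2 CPM relative to the mean of the 12 libraries (vertical axis) for the mean of 20 mitosis genes and for TMPO, LBR, NRM and LEMD3, with 1 point per library and a line at the clone mean. The mCherry_3 libraries are low in every panel but that of LEMD3, and for TMPO the mCherry_4 mean (0.00) lies below both LmnB1 means (0.42 and 0.28).

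EMD encodes emerin, a LEM domain protein that binds lamin A/C and BAF. It stood at 55.2, 54.2 and 55.4 CPM in mCherry_3 and 72.5, 70.3 and 76.0 CPM in mCherry_4. It stood at 69.1, 66.8 and 64.8 CPM in LmnB1_6 and 57.8, 54.1 and 61.8 CPM in LmnB1_16. The order was therefore mCherry_3 and LmnB1_16 at the bottom, overlapping, then LmnB1_6, then mCherry_4 at the top, so the clones of each construct stood apart from each other. EMD rose by 0.41 in mCherry_4 and by 0.28 in LmnB1_6 against mCherry_3, and fell by 0.33 in LmnB1_16 against mCherry_4 (edgeR adjusted p = 5.86e-05, 0.000847 and 0.00108). The construct difference was -0.03 (95% interval -0.25 to 0.18, adjusted p = 0.838), and its sign turned when some clones or libraries were left out.

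LEMD2 and LEMD3 are the other LEM domain proteins fixed in the inner nuclear membrane. LEMD2 acts with the membrane-sealing ESCRT machinery when the envelope reforms, and LEMD3 (MAN1) binds receptor-regulated SMAD proteins and restrains TGF-beta and BMP signalling. Over the 12 libraries LEMD2 ran from 63.8 to 77.7 CPM and LEMD3 from 35.7 to 42.2 CPM. For LEMD3 every pair of clones overlapped in CPM, though not in TPM (below). For LEMD2 the mCherry_4 libraries (71.4 to 77.7 CPM) lay above those of mCherry_3 (66.5 to 69.5) and LmnB1_6 (67.7 to 70.5) and overlapped those of LmnB1_16. The clone means spread over 1.09-fold for LEMD2 and 1.06-fold for LEMD3, a smaller spread than in all but 4.06% and 1.35% of the genes tested. Between the constructs LEMD2 differed by -0.04 (95% interval -0.15 to 0.07) and LEMD3 by 0.01 (-0.11 to 0.14), with edgeR adjusted p of 0.628 and 0.879.

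BANF1, which encodes BAF, the chromatin partner of the LEM domain, ran from 144 to 216 CPM. Its range within LmnB1_16 alone, 149 to 216, covered most of that. BANF1 differed by 0.13 between the constructs (SE 0.093, 95% interval -0.07 to 0.33, edgeR adjusted p = 0.360), and it was called in 0 of the 6 pairs of clones. In the pair with the smallest adjusted p, LmnB1_6 against mCherry_3, it differed by 0.24 (adjusted p = 0.0814). BANF1 shares 98 exon bases with EIF1AD on the opposite strand, and of its 5 listed processed pseudogenes the one with the most counts, BANF1P3, held 3.01 over the 12 libraries.

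TMEM43 encodes LUMA, which binds emerin and lamins. Its level was 103, 92.8 and 90.7 CPM in mCherry_3 and 114, 115 and 112 CPM in mCherry_4. In LmnB1_6 the level was 98.3, 102 and 91.8 CPM and in LmnB1_16 112, 108 and 104 CPM. The mCherry_4 libraries lay above all LmnB1 libraries, by little for LmnB1_16, and the mCherry_3 libraries overlapped those of LmnB1_6. TMEM43 rose by 0.25 in mCherry_4 and 0.18 in LmnB1_16 against mCherry_3 and fell by 0.22 in LmnB1_6 against mCherry_4 (edgeR adjusted p = 0.00325, 0.0233 and 0.00777). With log2(TPM + 0.1) the first of these was 0.12 (limma adjusted p = 0.212) and the second 0.11 (0.227), neither called. The construct difference was -0.03 (adjusted p = 0.837).

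TMEM201 encodes SAMP1, a protein of the inner nuclear membrane that also associates with the mitotic spindle. Its level was 36.6, 39.5 and 39.3 CPM in mCherry_3 and 41.5, 44.6 and 36.6 CPM in mCherry_4. In LmnB1_6 it was 42.4, 43.8 and 39.7 CPM, and in LmnB1_16 28.95, 34.9 and 32.8 CPM. All LmnB1_16 libraries lay below all 9 others, which was so for 4.43% of the genes tested, while the mCherry_4 libraries overlapped those of mCherry_3 and LmnB1_6 and mCherry_3 lay just below LmnB1_6. TMEM201 fell in LmnB1_16 by 0.26 against mCherry_3, by 0.34 against mCherry_4 and by 0.38 against LmnB1_6 (edgeR adjusted p = 0.0224, 0.0111 and 0.00221). Without single libraries the first had an adjusted p of up to 0.116 and the second of up to 0.0650, and with log2(TPM + 1) the second and the third had limma adjusted p of 0.218 and 0.0573. The construct difference was -0.10 (95% interval -0.31 to 0.12, adjusted p = 0.521).

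Counted by contrast, 4 of 9 members were called higher in LmnB1_6 than in mCherry_3 (TMPO, LBR, NRM and EMD), where 52.8% of all genes were called and 26.0% as higher. In LmnB1_16 against mCherry_3, 4 were higher (TMPO, LBR, NRM and TMEM43) and 1 lower (TMEM201), where 44.4% of all genes were called, 22.5% as higher and 22.0% as lower. Against mCherry_4 the numbers were smaller. In LmnB1_6, 1 was higher (TMPO) and 1 lower (TMEM43), with 37.2% of all genes called, 17.1% as higher and 20.1% as lower. In LmnB1_16, 1 was higher (TMPO) and 2 lower (EMD and TMEM201), with 15.7% called, 6.67% as higher and the rest as lower. The contrasts with a common mCherry clone share its libraries. Between the LmnB1 clones 2 of 9 were called, both lower in LmnB1_16 (EMD and TMEM201), where 34.4% of all genes were called and 16.6% as lower.

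**Figure D3:**
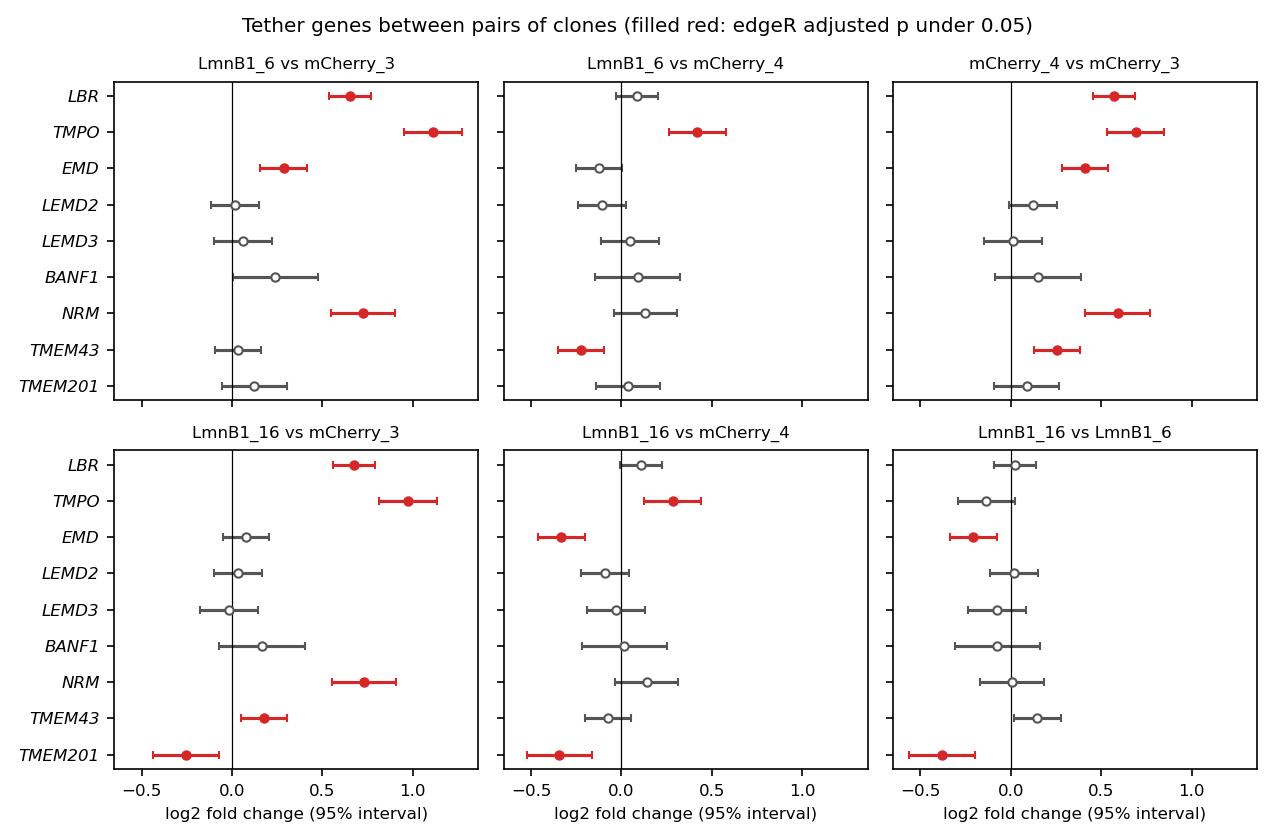
Log2 fold change (horizontal axis) with its 95% interval for the 9 tether genes in the 6 pairs of clones, filled where the edgeR adjusted p was under 0.05. TMPO is filled in all 4 panels that set an LmnB1 clone against an mCherry clone, and LBR and NRM in the 3 panels against mCherry_3.

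Levels of different genes were set side by side as TPM, which is scaled by transcript length. BANF1 was the most abundant tether transcript, at 549 ± 52.8 TPM (mean ± SD, n = 12). TMPO followed at 134 ± 37.0, EMD at 109 ± 10.9 and LBR at 92.8 ± 13.6. TMEM43 stood at 52.1 ± 4.05, NRM at 42.2 ± 7.35 and LEMD2 at 41.6 ± 2.74, and LEMD3 (16.9 ± 2.47) and TMEM201 (16.04 ± 1.92) were the lowest. Neighbours whose ranges did not overlap were BANF1 and TMPO, LBR and TMEM43, and LEMD2 and LEMD3, and all other neighbours overlapped. The order of some neighbours differed by clone. TMPO and EMD changed places, since TMPO was at 84.5 ± 7.70 and EMD at 100.05 ± 2.97 TPM in mCherry_3 but TMPO at 166 ± 10.3 and EMD at 113 ± 1.78 TPM in LmnB1_6. NRM was likewise below LEMD2 in mCherry_3 (31.4 ± 0.11 against 43.7 ± 2.12 TPM) and above it in LmnB1_16 (48.6 ± 2.97 against 42.4 ± 1.11 TPM). EMD was above LBR in mCherry_3 (LBR 72.1 ± 2.17 TPM), while in LmnB1_16 the ranges overlapped, with EMD at 101 ± 7.23 and LBR at 106 ± 2.80 TPM. LEMD3 and TMEM201 stood at 14.7 ± 0.73 and 16.3 ± 1.75 TPM in mCherry_4, the reverse of their order over the 12 libraries.

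**Figure D4:**
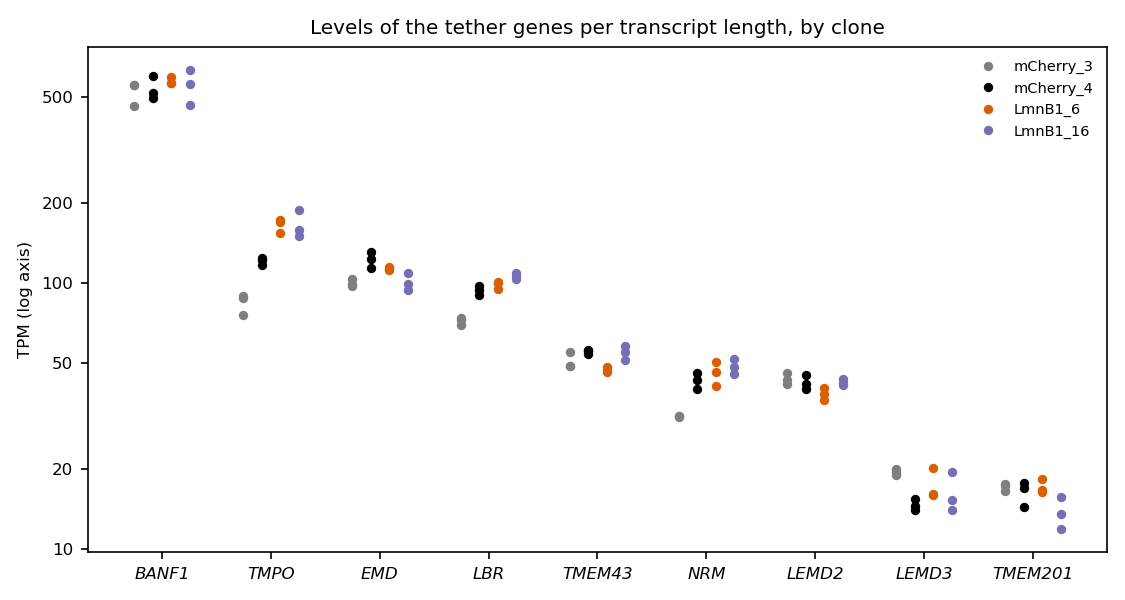
TPM (vertical axis, log scale) of the 9 tether genes in each library, coloured by clone and ordered by the mean over 12 libraries. BANF1 (462 to 634) stands above all others and LEMD3 and TMEM201 (11.8 to 20.2) below, with TMPO spread over 75.6 to 189.

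The 8 membrane members without BANF1 summed to 419 ± 2.46 TPM in mCherry_3 and 509 ± 9.51 in mCherry_4, and to 544 ± 13.2 and 549 ± 22.9 in the clones LmnB1_6 and LmnB1_16, TMPO with its soluble form included. TMPO made up 20.1% ± 1.76 of that sum in mCherry_3 and 23.8% ± 0.82 in mCherry_4, and 30.4% ± 1.23 and 30.2% ± 2.60 in the clones LmnB1_6 and LmnB1_16. LMNB1 transcript, the construct's included, was 0.121 ± 0.010 times this sum in mCherry_3 and 0.182 ± 0.013 times in mCherry_4, and 10.2 ± 0.21 and 8.83 ± 0.89 times in LmnB1_6 and LmnB1_16. The deposited length of LMNB1 averaged 2797 bases over the mCherry and 1280 over the LmnB1 libraries, and a shorter length raises TPM. LMNB1 therefore differed more in TPM (construct means 71.6 and 5216) than in CPM (123 and 3675). The sum of the tethers thus differed far less between clones than LMNB1 did. Lamin A/C, the other holder of peripheral heterochromatin beside LBR, is encoded by LMNA, which stood at 775 ± 45.5, 1227 ± 89.3, 1101 ± 42.4 and 965 ± 29.1 CPM in mCherry_3, mCherry_4, LmnB1_6 and LmnB1_16. The log2 ratio of LBR to LMNA in TPM was -3.07 ± 0.13, -3.19 ± 0.17, -2.90 ± 0.08 and -2.68 ± 0.12 in the same order. It was nearest to 0 in LmnB1_16, and the ranges of mCherry_3 (-3.18 to -2.92) and LmnB1_6 (-2.99 to -2.84) overlapped.

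The deposited transcript length, averaged over the splice forms of a gene by their estimated abundance, is a readout apart from the count. Between the constructs it was called in 0 of 9 members by limma with trend, where 0.0229% of 13076 genes were called. The smallest adjusted p of the members was that of NRM (1.68% longer, limma unadjusted p = 0.025, adjusted p = 0.702). TMPO was 3.3% shorter in the LmnB1 libraries (log2 -0.05, 95% interval -0.10 to 0.00, adjusted p = 0.790). LEMD3 had the least stable length of the members, from 3152 to 4542 bases (1.44-fold), and its ratio of longest to shortest within a clone reached 1.41. Its coefficient of variation over the 12 libraries was 14.6% in TPM and 5.62% in CPM, so its TPM moved more than its count. A smaller ratio of longest to shortest was found in 79.0% of the genes tested.

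Genes known to work with the tethers were taken from 6 lists, 43 genes in all. Of the 41 that passed the filter, 5 were called higher and 2 lower between the constructs, 17.1% against the background of 17.8%, and their median log2 fold change was 0.08. LMNB1 was the companion called in all 4 contrasts of an LmnB1 with an mCherry clone. Of the lamins, LMNB1 rose by 4.90 (edgeR adjusted p = 1.25e-07) and LMNB2, the other B-type lamin, by 0.40 (SE 0.11, adjusted p = 0.0331), while LMNA had 0.05 (adjusted p = 0.850). LMNB2 stood at 300 ± 21.3, 427 ± 9.28, 503 ± 5.83 and 456 ± 23.5 CPM in mCherry_3, mCherry_4, LmnB1_6 and LmnB1_16. In mCherry_4 it exceeded mCherry_3 by 0.51. Against mCherry_4 it rose by 0.24 in LmnB1_6 (adjusted p = 0.00429) and by 0.09 in LmnB1_16 (adjusted p = 0.329, not called).

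Repressors and transcription factors that bind LEM proteins were listed together with ID1, ID3 and SMAD7, targets of the signalling that MAN1 restrains. Of these 13 genes 3 were called, all higher. These were GMCL1, which binds emerin and LAP2 beta (0.30, adjusted p = 0.0244), the corepressor NCOR1 (0.23, adjusted p = 0.0370) and SMAD1 (0.66, adjusted p = 0.0200), a BMP effector that MAN1 binds. SMAD1 stood at 27.8 ± 3.01 CPM in LmnB1_6 but at 16.7 ± 0.49 in LmnB1_16, beside 13.1 ± 1.25 in mCherry_3 and 15.004 ± 0.08 in mCherry_4. Among the LBR partners and sterol reductase relatives 1 of 7 was called, TM7SF2, the sterol reductase most like LBR, which fell by 1.03 (SE 0.30, adjusted p = 0.0365). Its level was 42.9 ± 1.23 CPM in mCherry_3 and 10.1 ± 0.66 in LmnB1_6, the highest and lowest clones, and 19.9 ± 1.45 and 20.7 ± 0.87 in mCherry_4 and LmnB1_16. Of the HP1 genes of that list, CBX3 stood at 165 ± 6.27, 227 ± 6.90, 243 ± 13.5 and 242 ± 5.75 CPM in mCherry_3, mCherry_4, LmnB1_6 and LmnB1_16 (construct difference 0.31, adjusted p = 0.0501) and was named after its values were seen. Calls of these companions other than LMNB1 ended without the LmnB1_6 clone and also without mCherry_3. Without LmnB1_6 the difference of SMAD1 was 0.25 (adjusted p = 0.133) and that of TM7SF2 -0.60 (adjusted p = 0.237).

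Of the BAF paralogue, kinases and phosphatase 0 of 7 tested genes were called by edgeR, and PPP2R1A, a scaffold of the phosphatase PP2A and the most abundant, had 0.08 (adjusted p = 0.352). Of the other LEM domain genes 0 of 2 tested were called, and ANKLE2, which brings that phosphatase to BAF, had 0.01 (adjusted p = 0.957). LEMD1 and BANF2 did not pass the filter. Of 10 other nuclear membrane and envelope-sealing genes 1 was called, SUN1, which fell by 0.18 (SE 0.051, adjusted p = 0.0294). SUN1 was called lower in LmnB1_6 and LmnB1_16 against mCherry_3 (-0.27 and -0.22). Against mCherry_4 it was called in neither (-0.14, edgeR adjusted p = 0.0616, and -0.10, adjusted p = 0.318). Without single libraries the adjusted p of its construct difference reached 0.0766.

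The genes whose log2 CPM, centred over the 12 libraries, differed least from that of a member were found among 10805 genes at a mean of at least 5 CPM. For TMPO (SD 0.46 over the libraries) these were CENPJ, ANP32E and SMC2, with root mean square differences of 0.076, 0.082 and 0.086. For LBR (SD 0.29) they were NUP37, RAN and FANCG at 0.056 to 0.063, and for NRM (SD 0.32) ATAD3A, NPM1 and RBMX at 0.044 to 0.066. For EMD they were SNX7, PGK1 and DBNDD1, for TMEM201 APPL2, PITPNA and BAIAP2L1 and for TMEM43 URI1, NIPA2 and KDELR2. For LEMD2 (SD 0.08) they were GLRX3, SEC13 and CALM3, and for BANF1 (SD 0.18) RPL30, BUD23 and the pseudogene RPS2P5. These likenesses rest on 12 libraries that share 4 clones and describe levels alone.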

How the data were processed

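Messenger RNA was measured in 12 libraries of 4 clones, grouped by the labels. Per the file headers, the authors deposited for each library a gene table with estimated counts of fragments (expected counts, not normalized), TPM, transcript length and effective length. Per the submitters' processing notes, STAR, Salmon and DESeq2 were used on GRCh38 (hg38); versions, roles and annotation release were not given in the sources used here. Symbols and positions came from GENCODE 29 (58440 of 60708 identifiers matched without version).

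Counts were rounded and tested with edgeR 4.0.16 in R 4.3.3 (TMM, filterByExpr by clone with minimum count 10 and total 15, quasi-likelihood, Benjamini-Hochberg over 15388 genes). Models were construct (6 against 6 libraries) and clone (4 groups of 3). The common dispersion gave a biological coefficient of variation of 0.262 and 0.0842. The TPM that the authors deposited served for levels between genes and, as log2(TPM + 0.1 or + 1) in limma 3.58.1, as an alternative; lengths were tested with limma. Other alternatives were DESeq2 1.42.0, RLE factors, no filter, the replicate number as a block, libraries or clones left out, counts summed per clone and clone as a random effect. The tests were checked on simulated counts, drawn with the spread between libraries of a clone and without differences between clones of a construct. That simulation is therefore no check of the test of 6 against 6 libraries where such clones differ. In the clone model the p-values measure the spread between libraries of the same clone. In the construct model the spread between clones also enters the error, but each library counts as a unit. Neither of these models takes the independent clone as its unit.

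The members and lists were chosen with earlier results of these data known. Named were all members, LMNB1, LMNA, up to 3 called genes per companion list (or the most abundant) and the 3 genes most like each member. Those most like LEMD3 are not reported here. Protein sequences were not used here.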

Additional observations from a re-analysis of the deposited data

Results flagged for a closer look

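The clones of the lamin B1 construct differed from each other in 2 of the tether genes, by edgeR's test of the difference itself. EMD was lower in LmnB1_16 than in LmnB1_6 by a log2 difference of -0.207 (SE 0.061, 95% interval -0.34 to -0.08, adjusted p = 0.0137), with all 3 LmnB1_16 libraries (54.1 to 61.8 CPM) below all 3 LmnB1_6 libraries (64.8 to 69.1 CPM). TMEM201 was lower in LmnB1_16 by -0.379 (SE 0.085, 95% interval -0.56 to -0.20, adjusted p = 0.00221), at 28.95 to 34.9 CPM against 39.7 to 43.8 CPM. With log2(TPM + 0.1) the limma adjusted p was 0.0670 for EMD and 0.0537 for TMEM201, and without single libraries the edgeR adjusted p of EMD reached 0.0597. LMNB1 itself was lower in LmnB1_16 by -0.24 (adjusted p = 0.0117), and its part in these differences was not tested.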

How the results depend on the processing

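The count of members called between the constructs (1) was 2 with RLE factors, 3 with DESeq2, 2 with either TPM pseudocount, 3 without clone mCherry_4, and 0 without clone LmnB1_6, with counts summed per clone or with clone as a random effect; it was 1 to 3 without single libraries. With counts summed per clone, edgeR called 0 of 15388 genes, and 642 genes and 0 members had an unadjusted p under 0.05 (TMPO 0.0685). The 2743 genes called became 1684 and 1673 with log2(TPM + 0.1) and log2(TPM + 1), 647, 4958, 1263 and 4808 without clones mCherry_3, mCherry_4, LmnB1_6 and LmnB1_16, 0 with counts summed and 163 with the random effect; without single libraries they were 1392 to 3078. The 7 companions called became 13 with DESeq2, 4 and 4 with TPM, 2, 18, 2 and 14 without those clones, 0 with counts summed and 1 with the random effect, and 2 to 11 without single libraries. TMPO was called in all 4 clone contrasts under every alternative run except without mCherry_4 replicate 3 or LmnB1_16 replicate 2, so that count was 0 to 1.

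Members near 0 changed sign. Without clone mCherry_4 EMD was 0.184, LEMD2 0.023 and TMEM43 0.107; without LmnB1_6 LEMD3 was -0.021, TMEM43 0.050 and LMNA -0.049; without LmnB1_16 EMD was 0.066 and TMEM201 0.080. Without mCherry_3 LMNA was -0.245, and on TPM (pseudocounts 0.1 and 1) LEMD3 was -0.017 and -0.016 and LMNA -0.024 in both. Without single libraries EMD ran from -0.076 to 0.021, LEMD3 from -0.0068 to 0.048, TMEM43 from -0.061 to 0.0076 and LMNA from -0.031 to 0.141. The cause of these changes was not tested.

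Same-numbered libraries were little alike in most pairs: over 18 such pairs the correlation of deviations from the clone means ran from -0.06 to 0.15. The median was 0.016, and 1 was over 0.1. The highest were between the replicate 3 libraries of mCherry_4, LmnB1_6 and LmnB1_16 (0.095 to 0.154). With these, replicate 3 of mCherry_3 had -0.039 to 0.004. What the replicate 3 libraries share was not tested. With the replicate block 1648 genes and 3 companions were called, and TMPO stayed called (adjusted p = 0.0322). Each member had at least 546 estimated counts in every library, and 2 clones per construct limit the precision.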
